A study of Mus musculus with 8 samples.

Results

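The RNA-binding regulators *Nanos2*, *Nanos3*, *Dnd1*, *Lin28a* and *Lin28b* were followed in cultured mouse spermatogonia. These 5 genes were chosen by name, as the germline members of the Nanos family, their partner *Dnd1* and both Lin28 paralogs, out of 55421 genes listed in the count table. All 5 were among the 20477 genes that passed the filter on low counts. *Nanos2* passed it only through the conditions without retinoic acid, since the libraries with retinoic acid held 1 to 3 of its reads.

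RNA was sequenced from spermatogonial stem cell (SSC) cultures, the in vitro form of undifferentiated spermatogonia, in a design that crossed retinoic acid with nutrient restriction, with 2 libraries in each of 4 conditions. Testes of 6-day-old pups of the C57BL/6XDBA/2 cross gave the cultures, which were kept on a feeder layer of irradiated mouse embryonic fibroblasts (MEFs), so feeder RNA can be part of every library. All conditions shared this origin, and the complete SSC medium held GDNF, which the labels give at 10 ng/ml and the paper at a higher concentration. Veh cultures received vehicle in complete medium, and RA cultures received 100 nM retinoic acid in complete medium. NR cultures were kept in 90% Earle's balanced salt solution (EBSS) with 10% complete medium, and NRRA cultures received 100 nM retinoic acid in that medium. This mixture also diluted the growth factors GDNF and FGF2 of complete medium. Fewer nutrients and less growth factor cannot be told apart in NR and NRRA. Treatment lasted 48 h. The study describes the libraries of a condition as independent biological replicates.

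Nanos proteins are zinc finger proteins that bind mRNAs and recruit the CCR4-NOT deadenylase, which removes the poly(A) tail and silences the message. NANOS2 keeps male germ cells undifferentiated and out of meiosis, NANOS3 protects primordial germ cells, and DND1 is needed for the survival of primordial germ cells and helps to load NANOS2 onto mRNAs. LIN28A and LIN28B bind the precursors of let-7 microRNAs and prevent their maturation, and let-7 in turn represses the Lin28 mRNAs and a set of growth-promoting mRNAs.

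Library totals ranged from 19261333 to 30023585 counts. The summed level of 18 markers of undifferentiated spermatogonia lay between 1230 and 1310 CPM in Veh (CPM, counts scaled by TMM to a common library size) and between 1110 and 1140 CPM in NR. It lay between 625 and 639 CPM in RA and between 483 and 484 CPM in NRRA. The 6 germ cell markers summed to 874 to 917 CPM for Veh, 947 to 1020 for RA, 1130 to 1160 for NR and 1140 to 1160 for NRRA, so germ cell markers were detected in every library. The 12 fibroblast markers summed to 11600 to 12000 CPM in Veh and 9290 to 10000 in RA, against 24100 to 25300 in NR and 21700 to 22200 in NRRA. Among the fibroblast markers, *Col1a1* carried 3740 CPM in Veh and 7870 in NR, while *S100a4* was low, at 3.15 and 1.74 CPM. The Sertoli cell list summed to between 47.2 and 113 CPM over all libraries and the Leydig cell list to between 5.81 and 15.2 CPM, with at most 3 counts of *Fshr* and of *Lhcgr* in any library. The macrophage list summed to between 203 and 288 CPM.

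**Figure D1:**
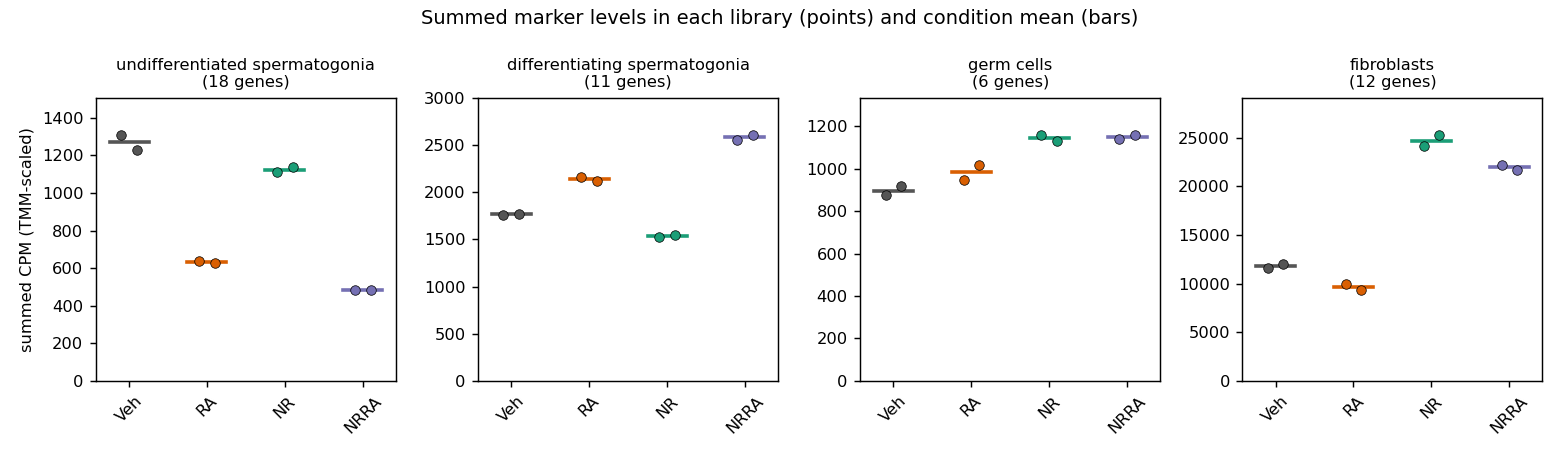
Summed CPM of 4 marker lists in each of the 8 libraries (points, with a bar at the mean of each condition). The undifferentiated list is lowest in NRRA, at 483 to 484 CPM, and the fibroblast list is at or above 21700 CPM in both nutrient-restricted conditions and at or below 12000 CPM in the others.

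The sequences that tie these regulators to let-7 are given first, because Lin28 proteins act on let-7 precursors and let-7 acts on Lin28 mRNAs. The 8 mature mouse let-7 RNAs of the RefSeq table (GRCm38.p6) shared 1 seed, bases 2 to 8, which is in capitals below. The libraries were made from poly(A) mRNA, and let-7 itself was not measured. A pair of the 8 is shown.
mmu-let-7a-5p: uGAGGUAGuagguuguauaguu
mmu-let-7g-5p: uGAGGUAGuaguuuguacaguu

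LIN28 proteins recognise the motif GGAG in the terminal part of let-7 precursors. GGAG was present in 9 of 11 let-7 hairpins (81.8%), against 44.5% of all 1005 miRNA hairpins searched in the same table. The hairpin of *Mirlet7a-1* carries it after the loop and is shown with the motif in capitals.
Mirlet7a-1: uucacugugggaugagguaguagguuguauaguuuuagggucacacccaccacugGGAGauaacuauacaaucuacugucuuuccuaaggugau

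The match to the let-7 seed, CTACCTC, occurred 2 times in the 3′ UTR of *Lin28a* and 4 times in that of *Lin28b* (GENCODE M21, GRCm38). It had 0 matches in the 3′ UTRs of *Nanos2*, *Nanos3* and *Dnd1*, and it was found in 8.86% of 20952 protein-coding genes. Those 3 UTRs are shorter, with 947, 172 and 360 bases against 2775 for *Lin28a* and 4445 for *Lin28b*. The share over all genes is not matched for length. Stretches of 30 bases ending 1 base after the match, with the match in capitals, are shown for the Lin28 genes. They lie at chr4:134005189-134005218 and chr4:134004551-134004580 for *Lin28a* and at chr10:45381022-45381051 and chr10:45378648-45378677 for *Lin28b*, all on the minus strand.
Lin28a site 1: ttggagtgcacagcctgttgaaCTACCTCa
Lin28a site 2: atgctttgagatcgccacaaacCTACCTCa
Lin28b site 1: tcccttcacccgggcgggaagtCTACCTCa
Lin28b site 2: acgtacatatacttgttagtaaCTACCTCt

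Retinoic acid lowered both germline Nanos mRNAs to a small part of their level. *Nanos2* (ENSMUSG00000051965, chr7:18987400-18988962, plus strand) had 68 counts in each Veh library, 3.37 and 3.54 CPM. The RA libraries held 3 and 1 counts, 0.153 and 0.0347 CPM. In nutrient restriction alone it stayed near the Veh level, with 77 and 93 counts, 3.71 and 3.53 CPM. Both NRRA libraries held 2 counts, 0.0715 and 0.0642 CPM. All libraries with retinoic acid were below all libraries without it. Pooled over libraries, the level in Veh was 41.8 times that in RA (95% counting interval 16 to 156, from 136 against 4 counts). The level in NR was 53.4 times that in NRRA (interval 20.5 to 198, from 170 against 4 counts). These intervals cover counting error only, and 1 count stands for 0.0321 to 0.0521 CPM. The Veh to RA ratio was 99.6 without library 1 of RA, which leaves 1 read in RA, and 22.6 without library 2 of RA. The NR to NRRA ratio ranged from 50.5 to 56.2 when 1 library was left out. No p is given for these contrasts, since the gene passed the low-count filter only through the conditions in which it was high. In total RNA of a culture, fewer cells of a type and less RNA per cell cannot be told apart. The undifferentiated marker list fell in the same conditions, with 14 of its 18 genes lower in RA vs Veh, beside 23.4% of all tested genes. In NR vs Veh, where *Nanos2* stayed near its Veh level, 9 of the 18 were lower and 3 higher, with a median of -0.31. That is 66.7% of the list, beside 43.9% of all tested genes. The part of the marker list's shifts in the *Nanos2* result was not tested.

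*Nanos2* counts carry a limit from the annotation, because 49.0% of its exon bases overlap *Gm45058*, an antisense transcript. The strand setting of the counting is not given in the sources used here, so reads of the pair may not be fully separated. *Gm45058* had 47 and 41 counts in the Veh libraries, 54 and 57 in NR, 1 and 0 in RA, then 0 and 1 in NRRA, the same division by retinoic acid as *Nanos2*.

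*Nanos3* (ENSMUSG00000056155, chr8:84173731-84185217, minus strand) overlaps no annotated exon of another gene and showed the same division with more reads. It had 347 and 286 counts in Veh (17.2 and 14.9 CPM) and 27 and 64 in RA (1.38 and 2.22 CPM). It had 408 and 571 counts in NR (19.7 and 21.7 CPM) and 52 and 33 in NRRA (1.86 and 1.06 CPM). The conditions with retinoic acid were again entirely below those without it. *Nanos3* fell by 3.10 on the log2 scale in RA vs Veh (SE 0.172, n = 2 libraries a condition, adjusted p = 8.77e-14 by edgeR's quasi-likelihood test). It fell by 3.84 in NRRA vs NR (SE 0.162, adjusted p = 1.79e-16, edgeR). By pooled level, *Nanos3* was 8.56 times lower in RA than in Veh (counting interval 6.86 to 10.8). NR stood 14.5 times above NRRA (counting interval 11.6 to 18.3). These intervals leave out the spread between libraries. Leaving out a library gave Veh to RA ratios from 7.24 to 11.7 and NR to NRRA ratios from 11.2 to 19.6. Both ranges reached beyond their counting intervals.

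Nutrient restriction alone changed the Nanos genes little. *Nanos2* differed from Veh by a log2 value of 0.06 (95% interval -0.34 to 0.47, edgeR adjusted p = 0.82). *Nanos3* was 0.37 higher in NR on the log2 scale (SE 0.112, edgeR adjusted p = 0.00914). That call was lost with DESeq2 (adjusted p = 0.354) and without library 2 of Veh (0.28, adjusted p = 0.0702, edgeR) or library 2 of NR (0.31, adjusted p = 0.117, edgeR). Scaling the libraries to the germ cell markers in place of TMM brought it to 0.01 (adjusted p = 0.939, edgeR) and turned *Nanos2* to -0.29. With retinoic acid present, nutrient restriction gave no detectable change of either gene, with -0.27 for *Nanos2* (interval -2.2 to 1.66) and -0.38 for *Nanos3* (interval -0.92 to 0.17) in NRRA vs RA. Without library 1 of RA the *Nanos2* value became 0.87, and without library 2 of RA the *Nanos3* value became 0.06. *Nanos3* passed at -0.82 without library 1 of NRRA (adjusted p = 0.049, edgeR) and at -0.59 with the germ cell scaling (adjusted p = 0.0267, edgeR).

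The response to retinoic acid was not shown to differ between the media for *Nanos2*, with an interaction of -0.34 (interval -2.33 to 1.66, edgeR adjusted p = 0.875), which was 0.81 without library 1 of RA. For *Nanos3* the interaction was -0.75 (interval -1.34 to -0.15, edgeR adjusted p = 0.0911), and it passed without library 1 of Veh, of RA or of NRRA (adjusted p = 0.0335, 0.0386 and 0.0215, edgeR), whereas it was -0.30 without library 2 of RA and -0.38 without library 2 of NRRA.

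Ordered by level, *Nanos2* and *Nanos3* both ran from NRRA and RA at the bottom to Veh and NR at the top. NRRA and RA were not told apart for either gene, nor were Veh and NR for *Nanos2*. Per kilobase of exon, *Nanos3* exceeded *Nanos2* in every library, by a ratio of 7.11 to 10.4 in the 4 libraries without retinoic acid. The ratio ranged from 15.2 to 108 with retinoic acid, where it rests on 1 to 3 reads of *Nanos2*. The somatic paralog *Nanos1* went the other way, where Veh held 23.2 CPM, RA 31.4, NR 18.8 and NRRA 32. *Nanos1* rose by 0.44 on the log2 scale in RA vs Veh (adjusted p = 0.000115, edgeR) and fell by 0.29 in NR vs Veh (adjusted p = 0.00982, edgeR).

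**Figure D2:**
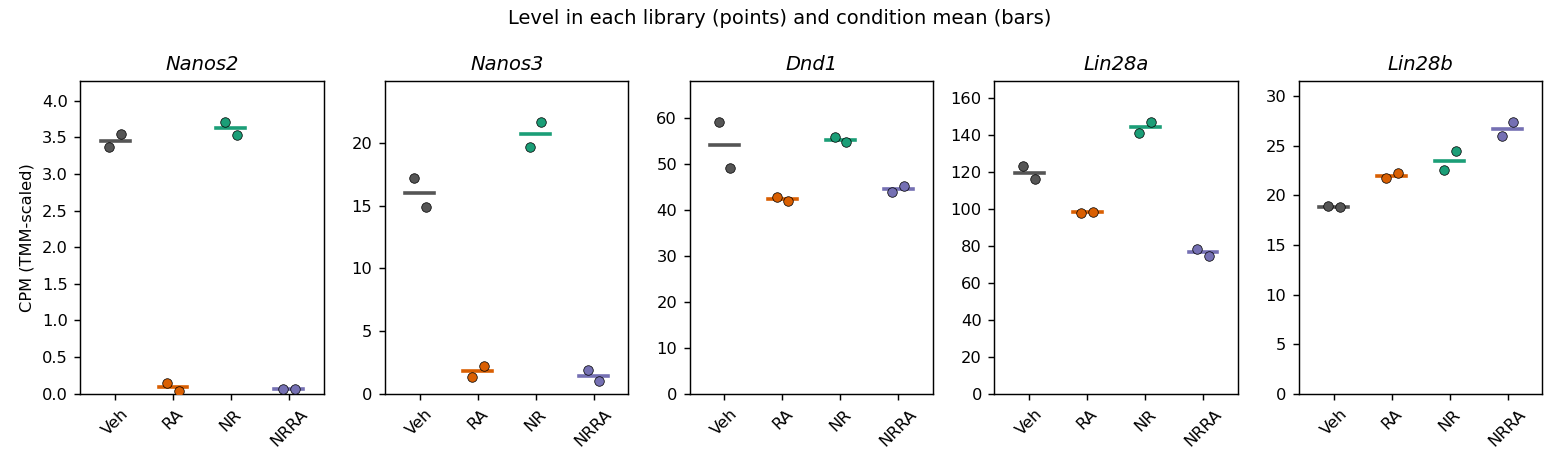
CPM of the 5 genes in each of the 8 libraries (points, with a bar at the mean of each condition, each panel on its own axis from 0). *Nanos2* stays at or below 0.153 CPM and *Nanos3* at or below 2.22 CPM in the 4 libraries with retinoic acid, *Lin28a* is lowest in NRRA and *Lin28b* is highest there.

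Because the Nanos genes moved together, the promoter windows of the RefSeq table, which span each start site (GRCm38.p6), were searched for the core hexamer of nuclear receptors, the class that includes the retinoic acid receptors. The hexamer AGGTCA was searched on both strands, and so were the hexamer AGTTCA, then the hexamer GGGTCA and lastly the hexamer GGTTCA. The *Nanos2* window (chr7:18987274-18987573, plus strand) held AGGTCA on the opposite strand, which begins 22 bases after the RefSeq start and appears in capitals as its complement. The annotated gene of GENCODE M21 begins inside this window. The *Nanos3* window (chr8:84176503-84176802, minus strand) held none. This window lies inside the annotated *Nanos3* gene, and the outermost GENCODE M21 start, at 84185217, was not searched. Such a hexamer was present in 43.7% of 32851 promoters. Direct repeats of it with a spacer of 1, 2 or 5 bases were in 0.222%, 0.268% and 0.0974% of promoters and in none of the windows searched. *Lin28a* had 1 hexamer, beginning 100 bases before its start, *Lin28b* had none, and no entry for *Dnd1* was used. The *Lin28b* window (chr10:45470152-45470451) also lies inside its annotated gene, and the outermost start, at 45486395, was not searched.
Nanos2: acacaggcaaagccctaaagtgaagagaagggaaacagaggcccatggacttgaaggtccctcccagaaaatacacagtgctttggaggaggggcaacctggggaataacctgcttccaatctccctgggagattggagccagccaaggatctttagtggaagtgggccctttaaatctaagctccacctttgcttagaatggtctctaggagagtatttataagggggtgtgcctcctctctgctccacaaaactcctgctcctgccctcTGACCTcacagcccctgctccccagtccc
Nanos3: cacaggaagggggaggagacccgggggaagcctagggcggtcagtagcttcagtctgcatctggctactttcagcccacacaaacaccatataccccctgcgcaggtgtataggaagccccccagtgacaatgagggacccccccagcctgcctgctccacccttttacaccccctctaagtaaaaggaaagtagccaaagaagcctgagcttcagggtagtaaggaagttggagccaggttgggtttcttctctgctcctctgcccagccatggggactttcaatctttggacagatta

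*Dnd1*, the partner that NANOS2 uses to reach its mRNAs, fell with retinoic acid in both media but kept most of its level. *Dnd1* (ENSMUSG00000044595, chr18:36763671-36766214, minus strand) stood at 59.2 and 49.2 CPM in the Veh libraries and at 55.8 and 54.9 in the NR libraries. The RA libraries had 42.9 and 41.9 CPM of it and the NRRA libraries 44 and 45.3. All libraries with retinoic acid lay below all libraries without it, and the Veh libraries differed from each other more than those of any other condition. *Dnd1* fell by 0.36 on the log2 scale in RA vs Veh (SE 0.0695, edgeR adjusted p = 0.000141) and by 0.31 in NRRA vs NR (SE 0.0661, edgeR adjusted p = 0.000398). NR vs Veh gave 0.03 (interval -0.11 to 0.17, edgeR adjusted p = 0.772) and NRRA vs RA gave 0.08 (interval -0.06 to 0.22, edgeR adjusted p = 0.393). The NR vs Veh value rested on the Veh libraries, at 0.19 without library 1 (adjusted p = 0.0176, edgeR) and -0.09 without library 2, and the germ cell scaling gave -0.33 (adjusted p = 0.00024, edgeR). In NRRA vs Veh *Dnd1* fell by 0.28 (adjusted p = 0.000845, edgeR), and without library 1 of Veh the value was -0.14 (adjusted p = 0.0738, edgeR). The interaction of *Dnd1* was 0.05 (interval -0.15 to 0.25, edgeR adjusted p = 0.801) and -0.13 without library 1 of Veh. A total of 5.80% of its exon bases overlap *Wdr55* on the opposite strand.

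*Lin28a* showed a response to retinoic acid that depended on the medium. *Lin28a* (ENSMUSG00000050966, chr4:134003330-134018841, minus strand, with 5.86% of its exon bases over *Gm13061* on the opposite strand) had 123 and 116 CPM in Veh and 97.7 and 98.5 in RA. It had 141 and 147 CPM in NR and 78.5 and 74.3 in NRRA. The 4 conditions did not overlap, and the order ran from NRRA through RA and Veh to NR. Retinoic acid lowered *Lin28a* by a log2 value of -0.28 in complete medium (SE 0.0502, adjusted p = 4.76e-05, edgeR). In nutrient restriction it fell by 0.92 (SE 0.0494, adjusted p = 3.05e-14, edgeR), to 53% of the NR level. The interaction, the second value minus the first, was -0.63 (SE 0.0704, 95% interval -0.78 to -0.49, adjusted p = 2.89e-07, edgeR). It ranged from -0.71 to -0.50 over 15 alternatives and passed in all of them.

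Nutrient restriction moved *Lin28a* in opposite directions without and with retinoic acid. It was higher in NR than in Veh by 0.27 on the log2 scale (SE 0.0491, adjusted p = 6.01e-05, edgeR), a value that the germ cell scaling turned to -0.09 (adjusted p = 0.349, edgeR). It was lower in NRRA than in RA by a log2 value of -0.36 (SE 0.0504, adjusted p = 1.48e-06, edgeR). The fibroblast marker sum was higher in both nutrient-restricted conditions than in their counterparts, although not every marker was. Of the 12 markers, 9 rose and 2 fell in NR vs Veh (log2 values of -1.48 for *Twist2* and -0.87 for *S100a4*), and 9 rose and 3 fell in NRRA vs RA (*S100a4*, *Lum* and *Twist2*). That is 91.7% and 100% of the list, beside 43.9% and 40.3% of all tested genes. The part of the fibroblast markers in the *Lin28a* values was not tested.

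*Lin28b* moved against *Lin28a* under retinoic acid. *Lin28b* (ENSMUSG00000063804, chr10:45376620-45486395, minus strand, with no overlapping exon) stood at 18.9 and 18.8 CPM in the Veh libraries and at 21.7 and 22.2 in the RA libraries. The NR libraries had 22.5 and 24.5 CPM of it and the NRRA libraries 26 and 27.4. Every treated library was above both Veh libraries, and both NRRA libraries were above all others. *Lin28b* rose by 0.32 in NR vs Veh (SE 0.0799, adjusted p = 0.00163, edgeR), a value that the germ cell scaling turned to -0.03, by 0.28 in NRRA vs RA (SE 0.072, adjusted p = 0.00253, edgeR) and by 0.51 in NRRA vs Veh (SE 0.0765, adjusted p = 2.63e-06, edgeR). Its rise of 0.23 in RA vs Veh (SE 0.0805, adjusted p = 0.0255, edgeR) was lost with DESeq2 (adjusted p = 0.108), without the low-count filter (0.0687, edgeR) and without either RA library. Its rise of 0.18 in NRRA vs NR (adjusted p = 0.0415, edgeR) was lost with DESeq2 (adjusted p = 0.226), with RLE size factors (0.0686, edgeR) and without any 1 library of RA, NR or NRRA. RA and NR were not told apart (0.10, interval -0.06 to 0.25). For *Lin28b* in NRRA vs RA, leaving out 1 library gave 0.24 to 0.32, and the call was not kept in every such fit. The germ cell scaling removed the calls against Veh and in NRRA vs RA, with 0.08 in RA vs Veh, 0.14 in NRRA vs Veh and 0.06 in NRRA vs RA. The interaction of *Lin28b* was -0.04 (interval -0.27 to 0.18, adjusted p = 0.85, edgeR).

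Per kilobase of exon, *Lin28a* was the more abundant paralog in every library. The ratio of *Lin28a* to *Lin28b* was 14.7 and 14.1 in Veh and 14.3 and 13.6 in NR. It was 10.2 and 10.1 in RA and 6.84 and 6.15 in NRRA, so the ratio was lower in all libraries with retinoic acid and lowest in NRRA. This ratio within a library does not depend on the scaling of libraries. In NRRA vs Veh the paralogs' log2 values were -0.65 and 0.51, a difference of -1.15.

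**Figure D3:**
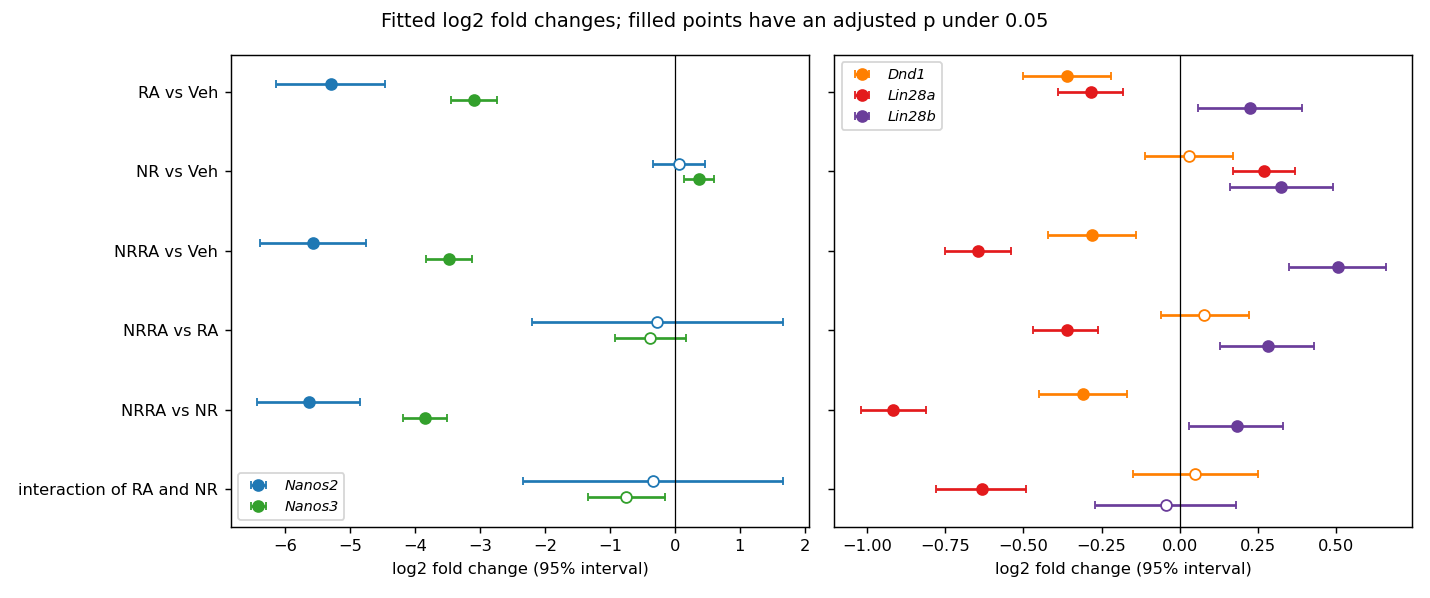
Log2 fold changes of the 5 genes with 95% intervals from the edgeR fit, in 5 comparisons and in the interaction of retinoic acid and nutrient restriction (left, *Nanos2* and *Nanos3*; right, the other genes on a narrower axis). Filled points have an adjusted p under 0.05, and the *Lin28a* interaction lies at -0.63. Filled *Nanos2* points that compare libraries with and without retinoic acid are a description, not a test. The low-count filter kept this gene only because of its reads without retinoic acid. Fitted values of *Nanos2* against conditions with retinoic acid also depend on the prior count.

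In RA vs Veh all 5 regulators had an adjusted p under 0.05, as 43.2% of all tested genes did, with 1 higher (19.8% of tested genes) and 4 lower (23.4%). Only *Nanos2* and *Nanos3* also reached a fold of 2, both lower, beside a background in which 7.49% of tested genes reached it in either direction and 2.75% in that direction. In NR vs Veh 3 passed, all higher, against 43.9% of tested genes in either direction and 21.7% higher, and none reached a fold of 2 (8.29% of tested genes). With the germ cell scaling *Dnd1* alone passed in NR vs Veh, and it was lower. In NRRA vs Veh 5 passed (58.9% of tested genes), 1 higher (30.1%) and 4 lower (28.7%), with the Nanos pair lower by a fold of 2 (15.9% in either direction, 6.02% lower). In NRRA vs NR 5 passed (43.4% of tested genes), 1 higher (21.3%) and 4 lower (22.1%), again with the Nanos pair lower by a fold of 2 (8.7% in either direction, 4.14% lower). In NRRA vs RA 2 passed (40.3% of tested genes), *Lin28a* lower (19.4%) and *Lin28b* higher (20.9%), neither by a fold of 2 (8.29%). In NR vs RA 4 passed, all higher in NR (48.3% of tested genes in either direction, 24.5% higher), which left out *Lin28b*, and the Nanos pair reached a fold of 2 (12.5% in either direction, 6.87% higher). The interaction passed for 1 of 5, *Lin28a*, which was lower (13% of tested genes in either direction, 6.58% lower) and under a fold of 2 (2.24%). Libraries of the compared conditions did not overlap for 5 of 5 regulators in RA vs Veh, where 68.1% of tested genes showed this, and for 3 of 5 in NR vs Veh (69%). The same held for 5 of 5 in NRRA vs Veh (77.3%), 3 of 5 in NRRA vs RA (69.9%), 5 of 5 in NRRA vs NR (72.5%) and 5 of 5 in NR vs RA (73.7%). The median log2 value of the 5 was -0.36 in RA vs Veh, 0.27 in NR vs Veh and -0.65 in NRRA vs Veh, where the medians of all tested genes were -0.019, 0.006 and 0.03. The comparisons with Veh share their control libraries. Because *Nanos2* entered the fit only through the conditions without retinoic acid, its calls between those and the retinoic acid conditions are a description and nothing is read from its part in these counts. Without it, 4 of 4 regulators passed in RA vs Veh, in NRRA vs Veh and in NRRA vs NR. In NR vs RA *Nanos3*, *Dnd1* and *Lin28a* passed without it. In each of these comparisons *Nanos3* alone then reached a fold of 2. The counts of libraries without overlap and the medians above include *Nanos2*.

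Over the 8 libraries, log2 CPM of *Nanos2* and *Nanos3* had a Pearson r of 0.97, and that of *Lin28a* and *Lin28b* an r of -0.51. The points fall into 4 conditions, so these values describe the design's contrasts. *Nanos2* has few reads with retinoic acid and passed the filter only without it, so its log2 CPM there depends on the prior count. All r values of *Nanos2*, also those below, follow that split and are a description only. The tested genes most like *Nanos2* were *Gm45058* (r = 0.9972), its antisense transcript, *Fam98a* (0.9969) and *Tbc1d2b* (0.9954). Those most like *Nanos3* were *Gm28364* (0.9949), *Foxf1* (0.9942) and *Extl3* (0.992). For *Foxf1*, Veh held 43.8 CPM, RA 11.1, NR 51.8 and NRRA 8. *Dnd1* was most like *Wbp1l* (0.9859), *Tcf7l1* (0.9857) and *Rtl8b* (0.9818). *Lin28a* was most like *Zfp366* (0.9937), *Npepps* (0.9932) and *Ptch1* (0.9912), the Hedgehog receptor, for which Veh held 55.7 CPM, RA 32.7, NR 75.3 and NRRA 22.7. *Lin28b* was most like *Mettl17* (0.9899), *Mylk* (0.9878) and *Lonrf3* (0.9856).

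No gene of the machinery that Nanos proteins recruit was called at a fold of 2 in RA, NR or NRRA vs Veh, where 7.49%, 8.29% and 15.9% of all tested genes were. Of 21 genes of the CCR4-NOT complex, Pumilio proteins and mRNA decapping and decay, 8 rose and 2 fell in RA vs Veh, 7 rose and 5 fell in NR vs Veh, and 9 rose and 5 fell in NRRA vs Veh. That is 47.6%, 57.1% and 66.7% of the list, beside 43.2%, 43.9% and 58.9% of all tested genes. The list's median log2 values were 0.02, -0.02 and 0.05, beside -0.019, 0.006 and 0.03 over all tested genes. With the germ cell scaling the balance turned, to 3 higher and 7 lower in RA vs Veh, 0 and 16 in NR vs Veh and 1 and 15 in NRRA vs Veh. *Xrn1*, the exonuclease that degrades decapped mRNAs, rose in all 3 (in NR vs Veh only 0.10 with the germ cell scaling, adjusted p = 0.291, edgeR), from a Veh level of 68 ± 9.37 CPM (SD, n = 2) to 96.7 ± 2.78 with RA, 93.2 ± 3.19 with NR and 115 ± 0.577 with NRRA. *Pum2*, a Pumilio RNA-binding protein, rose by 0.36 on the log2 scale in RA vs Veh (adjusted p = 2.55e-06, edgeR). *Celf1*, an RNA-binding protein of mRNA decay, fell by 0.31 in NR vs Veh (adjusted p = 1.41e-06, edgeR). *Dcp2*, the decapping enzyme, rose by 0.52 in NRRA vs Veh (adjusted p = 6.59e-08, edgeR), and its germ cell-scaled value was 0.16 (adjusted p = 0.075, edgeR). *Cnot1*, the scaffold of the deadenylase, had 446 CPM in Veh and 458, 441 and 449 in RA, NR and NRRA.

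Germ cell mRNAs listed, from general knowledge, as repressed by NANOS2 were mostly higher in the treated cultures. Of 7 such genes, 6 rose and 0 fell in RA vs Veh, 6 rose and 1 fell in NR vs Veh, and 7 rose in NRRA vs Veh, with medians of 0.45, 0.99 and 0.86. The share of the list that passed was 85.7%, 100% and 100%, beside 43.2%, 43.9% and 58.9% of all tested genes. Higher were 19.8%, 21.7% and 30.1% of all tested genes. The list median was largest in NR vs Veh, where *Nanos2* itself differed by only 0.06 (edgeR adjusted p = 0.82). The part of *Nanos2* in the values of this list was not tested. With the germ cell scaling 5 rose and 0 fell in RA vs Veh, 4 rose and 1 fell in NR vs Veh, and 5 rose and 1 fell in NRRA vs Veh, where *Dazl* is both on the list and among the markers used to scale. *Stra8*, the retinoic acid-induced gatekeeper of meiosis, had a Veh level of 1.33 ± 0.263 CPM (SD, n = 2) and reached 642 ± 15.1 with RA, 14.4 ± 0.167 with NR and 937 ± 28.5 with NRRA. *Kit*, the receptor of differentiating spermatogonia, had 6.32 ± 0.0244, 207 ± 6.59, 23.7 ± 0.13 and 358 ± 1.82 CPM in the same order. Both *Stra8* and *Kit* rose in all 3 comparisons with Veh. *Sycp3*, of the meiotic chromosome axis, had a Veh level of 9.9 CPM and reached 19.6 with RA, 19.7 with NR and 35.9 with NRRA. *Sohlh1*, a transcription factor of spermatogonial differentiation, rose by 1.07 in NR vs Veh (adjusted p = 5.89e-12, edgeR) and had a value of -0.03 in RA vs Veh (adjusted p = 0.8, edgeR). Its partner *Sohlh2* was the gene that fell in NR vs Veh, by 0.60 on the log2 scale (adjusted p = 9.88e-11, edgeR). The interaction passed for *Stra8* (-2.90), *Kit* (-1.12) and *Sohlh2* (0.54). *Stra8*, *Kit*, *Sohlh1* and *Sohlh2* also stand in the marker list of differentiating spermatogonia, so the lists are not independent.

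Of 10 genes that make, modify or degrade let-7, 1 rose and 5 fell in RA vs Veh, 2 rose and 4 fell in NR vs Veh, and 2 rose and 5 fell in NRRA vs Veh, none by a fold of 2. These are 60%, 60% and 70% of the list, where 43.2%, 43.9% and 58.9% of all tested genes passed and 7.49%, 8.29% and 15.9% also reached a fold of 2. With the germ cell scaling these counts were 1 and 6, 0 and 7, and 1 and 8, and with library totals 3 and 3, 3 and 4, and 3 and 5. *Tut4*, the uridylyltransferase that LIN28A recruits to let-7 precursors, rose by 0.73 in RA vs Veh and by 0.80 in NRRA vs Veh on the log2 scale (adjusted p = 3.7e-09 and 1.88e-10, edgeR). *Tut4* also rose in NR vs Veh, by 0.49, and by the germ cell scaling that value was 0.13 (adjusted p = 0.161, edgeR). *Trim71*, a let-7 target that promotes proliferation, had a Veh level of 302 CPM, with 223 under RA, 346 under NR and 206 under NRRA, with NR above and NRRA below the others, as for *Lin28a*, although its NR vs Veh value of 0.20 turned to -0.16 with the germ cell scaling. The *Trim71* interaction was -0.31 (adjusted p = 0.00079, edgeR). *Xpo5*, the exporter of miRNA precursors, fell by 0.44 in RA vs Veh and by 0.59 in NRRA vs Veh (adjusted p = 1.47e-08 and 1.36e-11, edgeR). *Ago2*, which loads mature miRNAs, fell by 0.28 in NR vs Veh (adjusted p = 1.32e-05, edgeR).

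Among 24 mRNAs listed as let-7 targets from general knowledge, 8 of which lack the seed match, 3 rose and 12 fell in RA vs Veh, 4 rose and 12 fell in NR vs Veh, and 3 rose and 16 fell in NRRA vs Veh. The medians were -0.14, -0.15 and -0.32, and 62.5%, 66.7% and 79.2% of the list passed, beside 43.2%, 43.9% and 58.9% of all tested genes. With the germ cell scaling 2 rose and 16 fell, 0 rose and 20 fell, and 0 rose and 20 fell, and with library totals 6 rose and 7 fell in RA vs Veh, 5 rose and 11 fell in NR vs Veh and 6 rose and 12 fell in NRRA vs Veh. The seed match CTACCTC was in the 3′ UTR of 16 of the 24 (66.7%). *Hmga2*, a chromatin protein with 4 matches, had a Veh level of 302 ± 16.7 CPM (SD, n = 2), with 268 ± 4.29 under RA, 77.3 ± 0.821 under NR and 51.1 ± 1.28 under NRRA. Its first match lies at chr10:120364224-120364253 on the minus strand.
Hmga2 site 1: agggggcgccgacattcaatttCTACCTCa

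*Hmga1*, with 1 match, fell by 1.96 in NR vs Veh and by 2.12 in NRRA vs Veh on the log2 scale (adjusted p = 7.61e-22 and 6.65e-23, edgeR). *Ccnd1*, a cyclin of the G1 phase with 0 matches, had a Veh level of 780 CPM, with 988 under RA, 226 under NR and 286 under NRRA, so it was higher with retinoic acid alone and lower in both nutrient-restricted conditions. *Mycn*, also with 0 matches, followed retinoic acid instead, from a Veh level of 56.9 CPM to 17.1 under RA, 54.7 under NR and 8.27 under NRRA. It fell by 1.74 in RA vs Veh (adjusted p = 3.01e-16, edgeR) and by 2.79 in NRRA vs Veh (adjusted p = 1.46e-20, edgeR), with an interaction of -0.99 (adjusted p = 3.9e-07, edgeR). *Igf2bp1*, an RNA-binding protein with 4 matches, fell by 1.19 in NRRA vs Veh (adjusted p = 1.36e-18, edgeR). Of the 24 mRNAs of this list, 3 fell by a fold of 2 in NR vs Veh (*Hmga2*, *Hmga1* and *Ccnd1*) and 1 in RA vs Veh (*Mycn*). In NRRA vs Veh 5 did, namely these and *Igf2bp1*. Over all tested genes 8.29%, 7.49% and 15.9% reached a fold of 2 in either direction, in the same order of comparisons. *Trim71* and *Dicer1* stand in both let-7 lists. The fibroblast marker sum was higher in NR and NRRA than in Veh, and the part of feeder RNA in the values of this and the other gene lists was not tested.

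**Figure D4:**
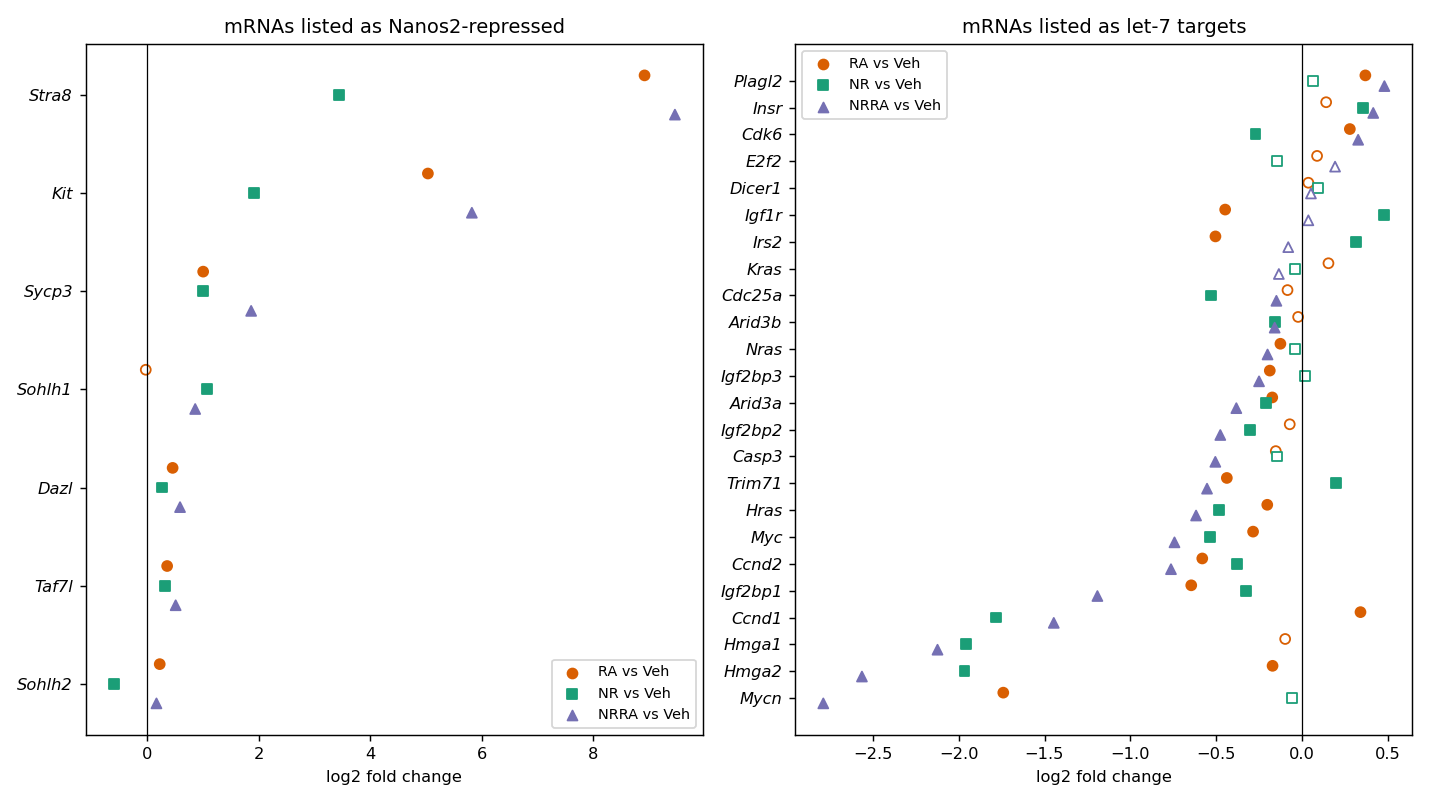
Log2 fold change against Veh for 7 mRNAs listed as repressed by NANOS2 (left) and 24 mRNAs listed as let-7 targets (right), in RA (circles), NR (squares) and NRRA (triangles). Filled symbols have an adjusted p under 0.05, *Stra8* and *Kit* lie farthest right in the left panel, and *Mycn*, *Hmga2*, *Hmga1* and *Ccnd1* lie farthest left in the right panel.

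DND1 has been linked to mRNAs of cell cycle inhibitors, and of 5 such genes 2 rose and 1 fell in RA vs Veh, 3 rose in NR vs Veh, and 3 rose and 1 fell in NRRA vs Veh, none by a fold of 2. These are 60%, 60% and 80% of a list written from general knowledge, beside 43.2%, 43.9% and 58.9% of all tested genes. A fold of 2 was reached by 7.49%, 8.29% and 15.9% of all tested genes. With the germ cell scaling 1 rose and 3 fell in RA vs Veh, and 0 rose and 2 fell in each of the other comparisons with Veh. *Cdkn1c* (p57) had 28.3 CPM in Veh and 41.5 in RA, a rise of 0.55 on the log2 scale (adjusted p = 4.49e-07, edgeR). *Cdkn1a* (p21) fell by 0.25 in RA vs Veh and by 0.39 in NRRA vs Veh (adjusted p = 2.9e-05 and 1.03e-08, edgeR). *Lats2*, a Hippo pathway kinase, rose by 0.39 in NR vs Veh and by 0.50 in NRRA vs Veh (adjusted p = 5.85e-06 and 5.16e-08, edgeR), with germ cell-scaled values of 0.04 and 0.13 that did not pass. Its paralog *Lats1* rose by 0.29 in NR vs Veh (adjusted p = 0.000238, edgeR), which the germ cell scaling turned to -0.06.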

How the data were processed

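The authors prepared stranded poly(A) libraries, and aligned the reads with STAR. The submitters' processing notes name STAR 2.6.1c, featureCounts 1.6.4, bcl2fastq and mm10. The authors deposited whole-number counts per gene without normalization. The strand setting and annotation release are not given in the sources used here. The labels gave each library's condition and number, and GENCODE M21 gave coordinates, where 55240 of 55421 identifiers were found.

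Counts were filtered with filterByExpr, scaled with TMM and fitted with edgeR 4.0.16 (R 4.3.3) over all 8 libraries, with 4 residual degrees of freedom. All pairwise comparisons and the interaction were tested by edgeR's quasi-likelihood method, and p-values were adjusted over 20477 genes by Benjamini-Hochberg. A call needed an adjusted p under 0.05, and a stricter call also a fold of at least 2. The standard error is the log2 value divided by the square root of F. Alternatives were DESeq2 1.42.0, limma-voom (limma 3.58.1), RLE factors, library totals, scaling to 6 germ cell markers, no filter, a replicate block, fits of the compared conditions alone and leaving out each library. For the lists the scaling alternatives, and for the pooled ratios leaving out a library, were added after the data were seen. Libraries of a condition differed by more than sampling noise (chi-square per gene from 1.58 to 3.93). The common biological coefficient of variation was 3.35%. The p-values rest on the spread between these libraries, and the labels do not show whether that is the spread between independent cultures. The edgeR script was tested on simulated data. Figures were drawn in Python 3.11.15 with matplotlib 3.10.9.

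The regulators and gene lists were chosen with earlier results of these data known, and the lists were written from general knowledge, not from a table of targets. Named genes are the regulators, up to 4 genes per list and comparison with Veh past both thresholds, or the 2 with the smallest adjusted p where there were none, and the 3 genes most like each regulator by Pearson r of log2 CPM (prior count 2). Other genes, namely *Cnot1*, *Sohlh2*, *Dicer1*, *Dazl*, *Igf2bp1*, *Wdr55*, *Gm13061*, *Twist2*, *Lum*, *Col1a1*, *S100a4*, *Fshr* and *Lhcgr*, were named after their values were seen.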

Additional observations from a re-analysis of the deposited data

Results flagged for a closer look

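The response of *Lin28a* to retinoic acid differed between the media by -0.63 on the log2 scale (adjusted p = 2.89e-07, edgeR interaction test), with a drop in both media and the larger drop under nutrient restriction. With 2 libraries a condition, no group was large enough to test for a sample far from the others.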

How the results depend on the processing

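The limits are 2 libraries a condition, few reads of *Nanos2* with retinoic acid, and a scaling choice that matters for nutrient restriction. Of the log2 values of single regulators, 512 kept their direction and side of the threshold under the alternatives, 24 lost and 6 gained a call, and 12 changed sign. Scaling to the germ cell markers moved the median of all genes by -0.14 in RA, -0.35 in NR and -0.36 in NRRA vs Veh, by -0.22 in NRRA vs RA and in NR vs RA and by 0.13 in the interaction. Library totals moved it by 0.1 and 0.11 in RA and NRRA vs Veh. The 6 germ cell markers did not all move the same way. In RA vs Veh 3 were higher and 3 lower, and in NR vs Veh 6 were higher. In NRRA vs Veh 4 were higher and 2 lower. All 6 passed each time, beside 43.2%, 43.9% and 58.9% of all tested genes. The germ cell scaling therefore rests on genes that themselves differed between conditions.

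Germ cell scaling turned NR vs Veh to -0.29 for *Nanos2*, -0.33 for *Dnd1*, -0.09 for *Lin28a* and -0.03 for *Lin28b*, with 1 regulator passing in place of 3. It gave -0.15 for *Dnd1* in NRRA vs RA, -0.12 for *Lin28b* in NR vs RA and 0.09 for the *Lin28b* interaction. The cause of the sign changes was not tested. Leaving out 1 library gave ranges of -0.09 to 0.19 for *Dnd1* in NR vs Veh, -1.12 to 0.87 for *Nanos2* and -0.82 to 0.06 for *Nanos3* in NRRA vs RA. The interaction ranged from -1.18 to 0.81 for *Nanos2* and from -0.13 to 0.15 for *Dnd1*. Regulators passing ranged from 1 to 3 in NRRA vs RA and from 1 to 2 in the interaction, and from 0 to 1 with a fold of 2. For all genes, the interaction at a fold of 2 had 459 calls, and 281 with DESeq2.

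Replicate numbers did not pair the libraries (correlations of deviations from -0.0334 to 0.0225). With a replicate block, all 35 values kept their calls, for example -0.28 for *Lin28a* in RA vs Veh (adjusted p = 6.84e-05).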
